A study of Homo sapiens with 8 samples.

Results

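Vehicle-treated HEL cells, the untreated baseline of a drug experiment, were read on 2 of the 8 Affymetrix expression arrays of the series. HEL is an established human erythroleukaemia line whose growth depends on an activated JAK2 kinase. The other groups were cells given both GRN163L and LY2784544, cells given GRN163L, a telomerase inhibitor, and cells given LY2784544, a JAK2 inhibitor, each with 2 arrays, and they are not compared here. The control cells had received only DMSO, the solvent, for 48 h, 1 culture in each of 2 separate experiments, and 150 ng of total RNA went into each array. Both arrays come from 1 cell line, so their spread covers these 2 cultures and arrays and not blood cells of different people. No test is made, because the question is which genes were on, high or silent in 1 condition.

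A value is a log2 RMA signal, and a pair of values gives experiment 1 and then experiment 2. Genes were ranked by the mean of the 2 arrays, each gene through the probe set with the highest mean among those annotated to exactly 1 gene, which gave 17934 genes. The percentile of a gene is the share of ranked genes at or below its mean. Probe sets bind their transcripts with different strength, so a rank describes signal and does not measure how many molecules of one transcript there are against another. A gene was called above background when it exceeded, on each array, the 95th percentile of 335 olfactory receptor genes, which most tissues do not use. That level was 4.38 and 4.27. By this rule 12279 genes, or 68.5% of those ranked, were above background, and 4492, or 25%, lay above the 75th percentile of the ranking. The strictest choice of background, the 99th percentile of the olfactory receptors together with the 95th of 111 taste receptor, hair keratin-associated and beta-defensin genes, left 8653 genes (48.2%) above. Counts under it are given for many of the lists.

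Red cells, megakaryocytes (the precursors of platelets), mast cells and basophils share early progenitors, and a few transcription factors work in all of these lineages. GATA1 and GATA2 bind short DNA motifs with a GATA core and act with TAL1, LMO2 and LDB1 in one complex. KLF1 binds CACCC motifs at red cell genes, and FLI1 is an ETS factor of megakaryocytes. Many cytokine receptors of these lineages have no kinase of their own and signal through JAK kinases to STAT factors.

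**Figure D1:**
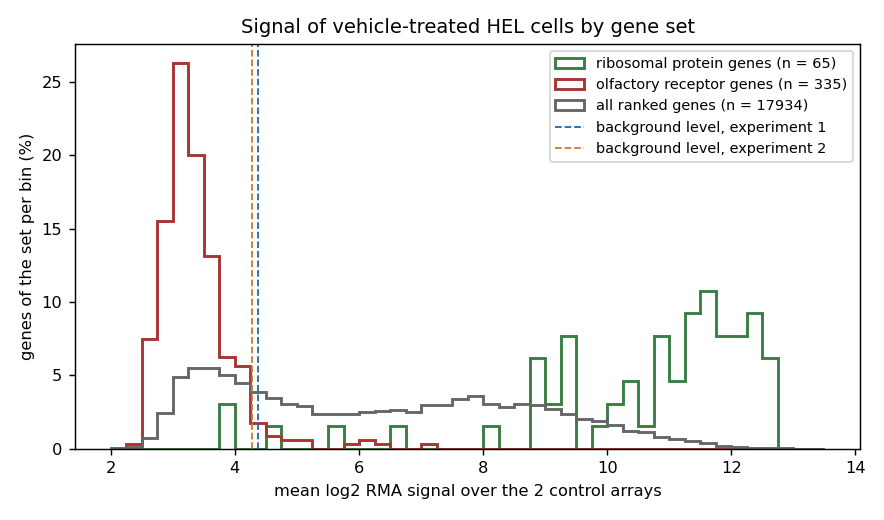
Percent of genes per bin of 0.25 (y axis) by mean log2 RMA signal over the 2 control arrays (x axis) for ribosomal protein genes, olfactory receptor genes and all ranked genes, with dashed lines at the background level of each array. The olfactory receptors gather at the left of the background levels, with medians of 3.22 and 3.27, the ribosomal protein genes gather at the right, and all genes spread between both.

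Promoters are shown first for 3 genes of high signal, 1 from each of 3 lineages. Their letters hold motifs of the factors just named. The genes were chosen after their values and letters were seen. EPB42 encodes protein 4.2 of the red cell skeleton and had a signal of 10.83 and 10.29. ITGA2B encodes the alpha chain of the platelet fibrinogen receptor and had 11.16 and 11.26. CPA3 encodes the carboxypeptidase of mast cell granules and had 10.25 and 9.89. The sequences are the 250 bases before each gene's start, from RefSeq on GRCh38.p14, read along the gene's strand. EPB42 lies at chr15:43221019-43221268 on the minus strand, ITGA2B at chr17:44389650-44389899 on the minus strand, and CPA3 at chr3:148865046-148865295 on the plus strand. Capitals mark GATAA, the related GATAG, and the CACCC-type motif CCACCC, each on either strand. A motif on the other strand appears as its reverse complement, and no marked motif overlaps another.
EPB42: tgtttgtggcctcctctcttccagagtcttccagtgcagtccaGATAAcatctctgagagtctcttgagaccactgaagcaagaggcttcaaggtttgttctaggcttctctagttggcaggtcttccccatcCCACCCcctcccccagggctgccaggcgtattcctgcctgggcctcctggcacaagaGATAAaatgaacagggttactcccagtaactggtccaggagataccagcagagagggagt
ITGA2B: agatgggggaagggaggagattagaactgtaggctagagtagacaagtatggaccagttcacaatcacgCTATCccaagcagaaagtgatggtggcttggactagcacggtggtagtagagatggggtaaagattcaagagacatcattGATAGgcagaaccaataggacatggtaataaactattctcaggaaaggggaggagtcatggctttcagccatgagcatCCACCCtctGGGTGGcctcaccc
CPA3: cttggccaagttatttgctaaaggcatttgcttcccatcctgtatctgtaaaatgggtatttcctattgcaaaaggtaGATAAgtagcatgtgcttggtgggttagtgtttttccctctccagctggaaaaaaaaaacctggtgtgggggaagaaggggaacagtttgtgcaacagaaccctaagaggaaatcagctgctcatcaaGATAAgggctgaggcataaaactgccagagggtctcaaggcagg

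The EPB42 window held 2 copies of GATAA and 1 of CCACCC. The ITGA2B window held GATAG once on each strand and CCACCC once on each strand, and the CPA3 window held 2 copies of GATAA. Of the red cell membrane genes above background with a promoter in the table, 5 of 9 held GATAA or GATAG, of the megakaryocyte and platelet genes 11 of 23, and of the mast cell, basophil and eosinophil genes 4 of 11. In windows of the same length they stood in 23.6% of the 9764 promoters matched to ranked genes above background and in 32.7% of all 27305 RefSeq promoters. CCACCC stood in 4 of 9, 15 of 23 and 4 of 11 of the same promoters, in 35.3% of those of ranked genes above background and in 30.4% of all. A match is a string of letters, and binding was not measured on these arrays.

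Over all lineage lists 190 of 282 ranked members were above background, and over all receptor and signalling lists 259 of 370. Both shares are close to the 68.5% of all ranked genes, so what the lists show lies in how they differ from each other. The lists were chosen with earlier results of these data known, so their order may partly reflect that choice.

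Of 15 erythroid factors 14 were ranked, 13 of them above background and 9 above the 75th percentile, with a median percentile of 85.7 against the middle of the ranking for all genes. LDB1, the bridging protein of the GATA complex, had 11.89 and 11.76 (percentile 99.6). GFI1B, a repressor needed in both lineages, had 11.04 and 11.18. MYB, which keeps progenitors dividing, had 10.97 and 10.77. GATA1 had 10.70 and 10.29, TAL1 10.01 and 10.34, and KLF1, the red cell factor, 9.51 and 9.04. LMO2 (7.28 and 7.33) and the GATA1 cofactor ZFPM1 (7.62 and 7.67) were above background and below the 75th percentile. The exception was SOX6, which in red cell precursors helps to silence embryonic globin, with 3.45 and 3.44. Its partner in that silencing, BCL11A, was above background at 6.29 and 5.74 (percentile 49.2), but lay on experiment 2 below the strictest background level.

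Of the globins with a probe set of their own, the embryonic ones lay higher in the ranking than the adult HBD and HBB. HBE1, the embryonic beta-type globin, had 12.55 and 12.62 and ranked among the 25 genes of highest signal. HBZ, the embryonic alpha-type globin, had 8.42 and 9.54 (percentile 84.0), higher in experiment 2 by 1.12. HBD, a minor adult globin, had 7.81 and 7.48. HBB, the adult beta-globin, had 6.92 and 5.96 (percentile 53.6). HBM and HBQ1, alpha-type genes of low output, had 5.41 and 5.69, and 6.07 and 5.97. In all, 6 of the 10 listed globins were ranked and above background, and 4 of those 6 stayed above under the strictest choice. The other adult and fetal globins share probe sets and have no rank: both probe sets assigned to the pair of adult alpha-globin genes read 12.5 and 12.61, and both assigned to the pair of fetal gamma-globin genes 12.15 and 12.05. Neither gene of a pair can be credited with that signal.

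Genes of the red cell membrane were mostly high, but some lay lower in the ranking or at background. Of 23 listed genes 15 were ranked. Of these, 12 were above background, 10 under the strictest choice, and 9 above the 75th percentile, with a median percentile of 88.7. RHAG, the Rh-associated transporter, had 10.98 and 10.71, ANK1, which ties the skeleton to the membrane, 10.41 and 10.06, and KEL, the Kell blood group protein, 10.22 and 10.11. EPB41, or protein 4.1, had 10.56 and 10.38. The anion exchanger SLC4A1, or band 3, the most abundant membrane protein of mature red cells, stayed at background with 3.60 and 3.90. So did ACHE (3.95 and 4.07), the acetylcholinesterase carried by red cells, and BCAM (4.09 and 4.04), the Lutheran blood group protein.

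Of 11 ranked late erythroid genes 9 were above background, 8 under the strictest choice, and 5 above the 75th percentile. CA1, a carbonic anhydrase of red cells, had 11.73 and 11.68, SELENBP1 11.32 and 11.46, and BNIP3L, which clears mitochondria from maturing red cells, 11.47 and 11.11. AHSP, the chaperone of free alpha-globin, was at 3.31 and 3.38 (percentile 10.3), and ALOX15, a lipoxygenase of reticulocytes, at 3.84 and 3.65. Genes of heme synthesis and iron handling were mostly high: all 11 ranked heme genes and all 9 ranked iron genes were above background. Under the strictest choice 10 and 8 of them were above, and 8 and 7 lay above the 75th percentile. The erythroid first enzyme of heme synthesis, ALAS2, had 11.09 and 10.22, and the housekeeping form, ALAS1, 9.30 and 9.18. SLC25A37, the mitochondrial iron importer of red cell precursors, had 11.46 and 11.03. TFRC, the transferrin receptor, had 11.79 and 11.61, and SLC40A1, the iron exporter ferroportin, 10.24 and 9.70.

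Of 33 ranked megakaryocyte and platelet genes 29 were above background and 19 above the 75th percentile, with a median percentile of 80.2. Under the strictest choice 24 were above. The platelet chemokine genes PF4 and PPBP, chosen after their values were seen, were among those lost by it. Both chains of the fibrinogen receptor were high: ITGB3 had 11.57 and 11.45 (percentile 99.2), and ITGA2B the values given with its promoter. GP1BA, the chain of the platelet receptor that binds von Willebrand factor, had 10.60 and 10.87, and SELP, the P-selectin of platelet granules, 10.26 and 10.29. RAB27B, needed to release platelet granules, had 11.26 and 11.27, LAT, an adaptor below the platelet collagen receptor, 11.26 and 11.24, and FLI1 10.80 and 10.44. The 4 members at background were CLEC1B (4.15 and 4.23), the podoplanin receptor, VWF (3.97 and 3.89), F13A1 (3.61 and 3.46), the A chain of clotting factor XIII, and P2RY12 (3.08 and 3.17), the ADP receptor of platelets that clopidogrel blocks.

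Mast cell, basophil and eosinophil genes were above background in 13 of 19 ranked cases, close to the 68.5% of all ranked genes, 10 under the strictest choice, and 9 lay above the 75th percentile, with a median percentile of 68.7. HDC, which makes histamine, had 10.64 and 10.54, and FCER1A, the alpha chain of the IgE receptor, 10.27 and 10.39. FCER1G, the signalling chain of that receptor, had 9.97 and 9.95. KIT, the receptor for stem cell factor, had 10.29 and 10.28, SIGLEC6 10.17 and 9.91, and PRG2, the major basic protein of eosinophil and basophil granules, 9.84 and 9.99. The 4 lowest members were at background: CMA1, the mast cell chymase, had 3.54 and 3.29, EPX, the eosinophil peroxidase, 3.77 and 3.67, CLC, the Charcot-Leyden crystal protein, 3.43 and 3.62, and RNASE2 3.36 and 3.25. The list holds markers of 3 cell types, and KIT and GATA2 also stand on the progenitor list. The arrays read bulk RNA, so a signal from few cells and a low signal from all cells cannot be told apart, nor can it be told whether 1 cell carries the red cell, platelet and mast cell genes together.

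**Figure D2:**
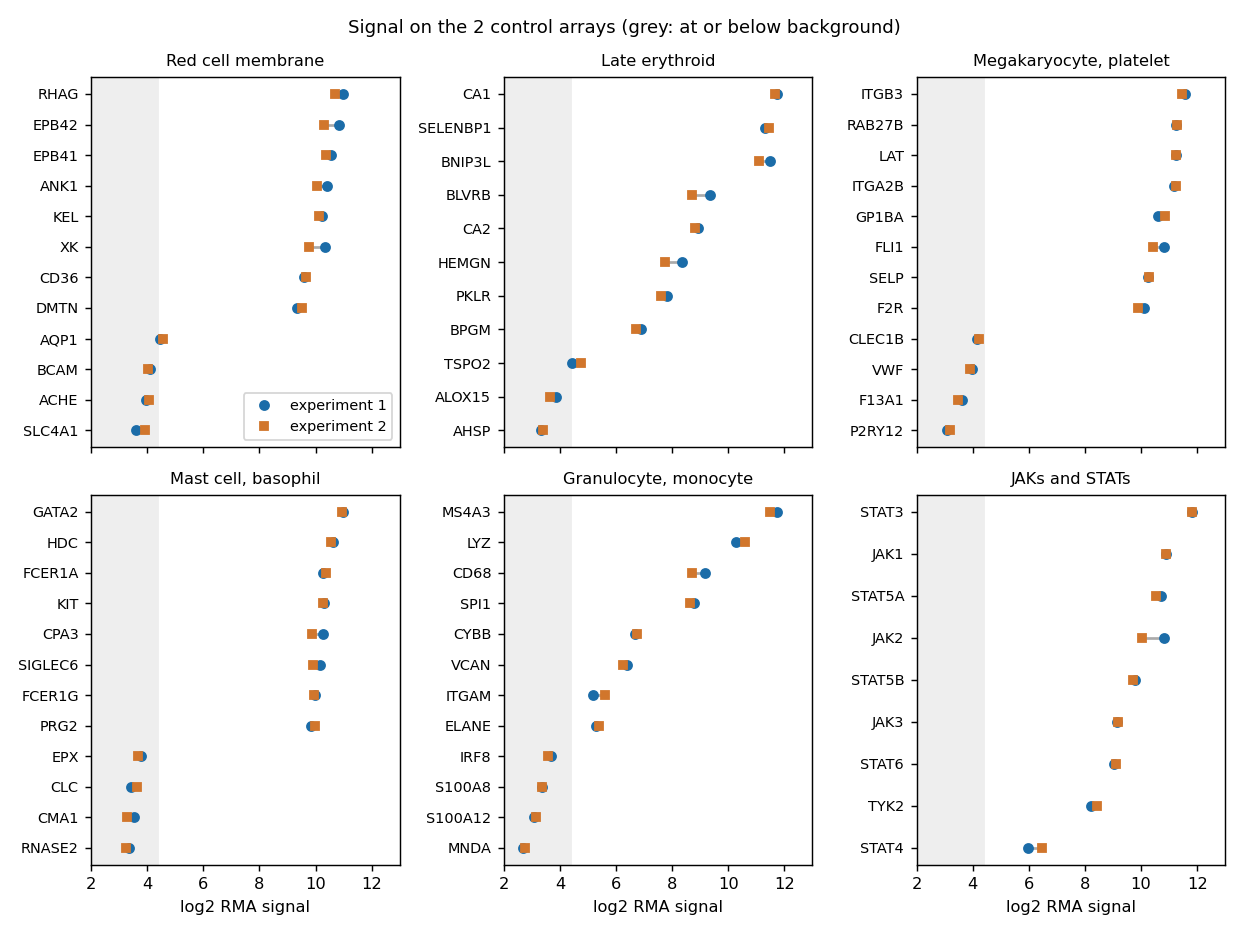
Log2 RMA signal (x axis) on the control arrays of experiment 1 (circles) and experiment 2 (squares) for members of 6 lists (y axis), with all members of the lists of 16 or fewer genes and the 8 highest and 4 lowest of the longer ones. The grey band is at or below the higher of the 2 background levels. The 3 lowest members of the red cell, platelet and mast cell lists fall in the band on both arrays, while their 8 highest lie above 9.

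Of the progenitor list, 14 of 20 ranked members were above background, again close to the share of all ranked genes. The strictest choice left 12, and 8 lay above the 75th percentile, with a median percentile of 69.0. RUNX1, a founding factor of blood stem cells, had 11.36 and 11.38, GATA2 10.98 and 10.93, MEIS1 9.21 and 8.58, and the surface protein THY1 9.07 and 9.54. FLT3, the receptor of early myeloid and lymphoid progenitors (3.52 and 3.46), PROM1, or CD133 (3.36 and 3.39), and SPINK2 (2.75 and 2.81) were at background. Among HOX genes, which set position in the embryo and self-renewal in blood, 18 of 27 (66.7%) were above background, close to the 68.5% of all ranked genes, and 2 above the 75th percentile. Those 2 were HOXB9 (10.51 and 10.21) and HOXB2 (9.95 and 9.54), chosen after their values were seen.

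Granulocyte and monocyte genes were mostly low, with 16 of 27 above background, 6 under the strictest choice and 4 above the 75th percentile. The median percentile was 33.1. Those 4 were MS4A3, a marker of granulocyte and monocyte progenitors and basophils (11.72 and 11.48), LYZ, or lysozyme (10.26 and 10.58), CD68, a lysosomal protein (9.17 and 8.69), and SPI1, or PU.1, the factor that drives the myeloid branch and opposes GATA1 (8.79 and 8.63). S100A8 (3.34 and 3.34), S100A12 (3.06 and 3.13), MNDA (2.69 and 2.75) and IRF8, a monocyte factor (3.67 and 3.56), were at background. Of 15 ranked B cell genes 6 were above background, 2 under the strictest choice, BTK and CD79A, and BTK alone was above the 75th percentile (10.46 and 10.15). BTK, a kinase below the B cell receptor, is also used in myeloid cells, mast cells and platelets. CD79A and CD79B, the signalling chains of that receptor, had 6.97 and 7.08, and 5.87 and 6.13, while PAX5, the master factor of B cells, was at background (3.83 and 3.88). Of 24 ranked T and NK cell genes 14 were above background, 4 under the strictest choice, and CD4 alone was above the 75th percentile (8.99 and 8.84). CD3E, which every T cell carries, was at background (3.31 and 3.39).

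Markers of tissues other than blood gave a comparison for these lists, though not a silent one, since some of them were above background. Of 15 liver genes 3 were above background and 1 under the strictest choice, and albumin (ALB) had 3.47 and 3.47. That 1 was TF, the iron carrier transferrin, with 8.87 and 8.50. Of 11 ranked neuron genes 4, of 12 epithelial genes 6, of 13 muscle genes 6 and of 13 fibroblast genes 7 were above background, and under the strictest choice 1, 2, 1 and 1. These shares were below the 68.5% of all ranked genes, and below the 48.2% under the strictest choice. Median percentiles ran from 13.1 for liver genes to 32.7 for fibroblast genes. The granulocyte and monocyte list and the T and NK cell list, each at 33.1, stood just above that range. The B cell list, at 21.5, lay within it. The neuron gene above the 75th percentile was GAD1 (9.27 and 9.15), which makes the transmitter GABA, and its sister gene GAD2 was at background (3.11 and 3.23). The epithelial one was KRT18 (8.28 and 8.56) and the fibroblast one VIM, or vimentin (11.08 and 11.11), an intermediate filament of many blood cells. EPCAM (3.90 and 3.98), COL3A1 (3.96 and 4.18) and MYOD1 (3.39 and 3.40) were at background.

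Cancer-testis genes, which healthy adult tissue keeps for germ cells, were above background in 5 of 18 ranked cases, 2 under the strictest choice, and 0 lay above the 75th percentile. Those 2 were PRAME (8.23 and 8.18) and MAGEA1 (7.73 and 8.29), and SYCP1, of the meiotic chromosome axis, was at background (2.74 and 2.67).

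Endothelial genes had a higher median percentile than the lists of those tissues, with 14 of 16 above background, 10 under the strictest choice, 6 above the 75th percentile and a median of 61.7. PECAM1 (10.75 and 10.80), ESAM (10.09 and 10.21), ICAM2 (9.97 and 9.97) and ENG (9.72 and 9.94) encode surface proteins that platelets or blood progenitors carry as well. The angiopoietin receptor relative TIE1 had 9.58 and 9.74 and the VEGF receptor KDR 8.97 and 9.23. CDH5, the cadherin of vessel walls, had 7.27 and 8.05, and LYVE1 (4.30 and 4.52) and EMCN (3.86 and 3.43) were not above background on both arrays.

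**Figure D3:**
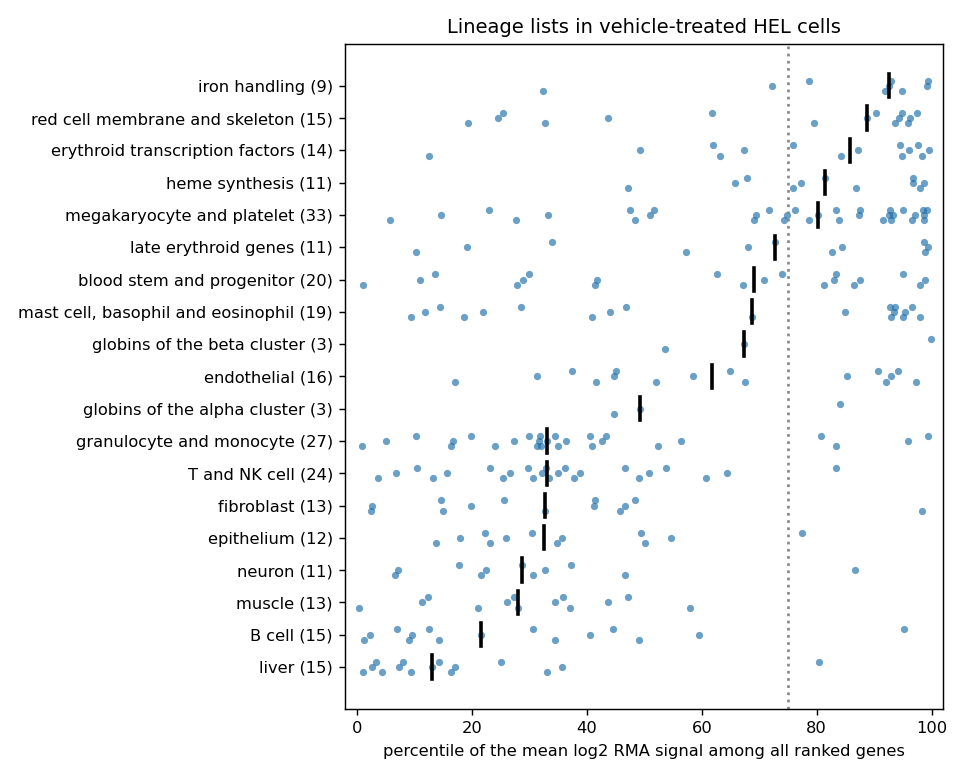
Percentile of each ranked list member among all 17934 ranked genes (x axis) for the lineage lists (y axis, number of ranked members in brackets), with a black bar at the list's median and a dotted line at the 75th percentile. Iron, red cell membrane and erythroid factor genes have the highest medians (92.5, 88.7 and 85.7), and liver genes the lowest, at 13.1.

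Antigen presentation was uneven. All 11 ranked class I genes were above background and 10 were above the 75th percentile, with HLA-B at 12.28 and 12.18 and B2M, the shared light chain, at 11.14 and 10.87. The class I genes are close copies of each other, so which of them gave a probe set its signal is uncertain. Of 11 ranked class II genes 8 were above background, near the 68.5% of all ranked genes. The strictest choice left 5, and 4 were above the 75th percentile. HLA-DPA1 (10.37 and 10.41) and HLA-DPB1 (9.40 and 9.07) were among those, HLA-DRA had 7.50 and 7.35, and HLA-DQB1 3.41 and 3.61. CIITA, the activator that class II genes require, had 5.50 and 5.38, above the main background level and below the strictest one.

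Cytokine receptors that signal through JAKs were mostly modest. Of 40 ranked members 25 were above background, a little under the 68.5% of all ranked genes, and 16 under the strictest choice. Above the 75th percentile lay 7, and the median percentile was 43.0. IL2RG, the common gamma chain, had 11.22 and 10.94, and CSF2RB, the common beta chain of the IL-3, IL-5 and GM-CSF receptors, 10.22 and 9.72. EPOR, the erythropoietin receptor through which JAK2 acts in red cell precursors, had 8.89 and 7.99 and was higher in experiment 1 by 0.90. IL6ST, or gp130, had 8.95 and 8.37, and the interferon receptor chains IFNAR1 and IFNAR2 9.11 and 8.92, and 8.40 and 8.58. The growth hormone receptor GHR (2.81 and 2.67), LIFR (2.72 and 2.97) and IL13RA2 (2.66 and 2.65) were at background.

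Receptor tyrosine kinases were mostly low or at background: of 51 ranked 25 were above background, 13 under the strictest choice, and 6 above the 75th percentile, with a median percentile of 30.5. KIT, given above, was the highest ranked, followed by IGF1R (10.21 and 10.16), the WNT receptor RYK (9.76 and 9.79), TIE1, KDR and FGFR3 (9.06 and 8.98). The insulin receptor gene INSR was listed at background, with 3.26 and 3.27 (percentile 8.6), while that of its relative IGF1R was at percentile 94.5. Both arrays were alike in this.

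Among receptors of other families, the thrombin, purine and lipid group, the TGF-beta and BMP group and the TNF group had shares above background close to the 68.5% of all ranked genes. Of 34 ranked thrombin, purine and lipid receptors 24 were above background, 11 under the strictest choice, and 4 above the 75th percentile. F2RL2, or PAR3 (11.09 and 11.05), F2R, or PAR1 (10.09 and 9.90), P2RX1, an ATP-gated channel of platelets (8.97 and 8.96), and PTGIR, the prostacyclin receptor (9.21 and 8.65), were those 4. Of 24 ranked integrins 15 were above background, a little under the share of all ranked genes, and 11 under the strictest choice. Above the 75th percentile were 9, led by both chains of the fibrinogen receptor. ITGB5 (10.16 and 10.24) and ITGA5, which binds fibronectin (9.59 and 9.93), came next. Among 13 ranked TGF-beta and BMP receptors 9 were above background. The highest was AMHR2, the receptor of anti-Mullerian hormone, known from the gonads, with 10.48 and 9.89 (percentile 94.5). TGFBR1 had 8.80 and 9.42, and BMPR2 9.24 and 8.57. Of 15 NOTCH and WNT receptors 14 were above background, 8 under the strictest choice, with NOTCH2 at 9.14 and 9.48 and FZD6 at 8.93 and 8.87. Of 27 TNF receptors 18 were above background, 7 under the strictest choice, led by LTBR (10.06 and 10.12). Innate receptors had the lowest median percentile, 17.7: of 17 TLR and IL-1 receptors 6 were above background, 3 under the strictest choice, and 0 above the 75th percentile. IL1RL1, the IL-33 receptor of mast cells, had 7.86 and 7.63. Of 20 chemokine receptors 8 were above background, 4 under the strictest choice, and 1, the scavenger ACKR2, was above the 75th percentile (8.99 and 8.51). CXCR4 had 7.88 and 7.13.

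**Figure D4:**
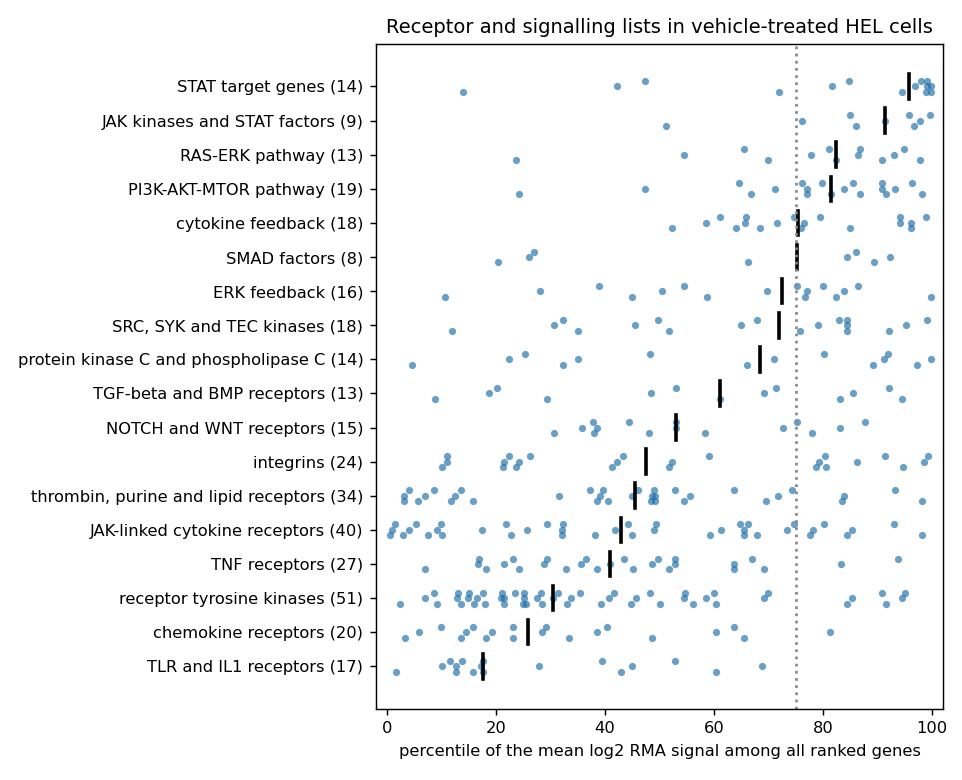
Percentile of each ranked list member among all 17934 ranked genes (x axis) for receptor and signalling lists (y axis, number of ranked members in brackets), with a black bar at the median and a dotted line at the 75th percentile. STAT target genes and JAK and STAT genes have the highest medians (95.6 and 91.3), and TLR and IL-1 receptors the lowest, at 17.7.

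All 9 ranked JAK and STAT genes were above background and 8 were above the 75th percentile, with a median percentile of 91.3. JAK2, the target of LY2784544, had 10.83 and 10.05 (percentile 95.8), higher in experiment 1 by 0.78. JAK1 had 10.89 and 10.89, JAK3 9.15 and 9.19, and TYK2 8.22 and 8.42. STAT3 had 11.81 and 11.80, STAT5A 10.72 and 10.52, STAT5B 9.80 and 9.70, and STAT4 5.96 and 6.47. All 18 ranked genes of cytokine feedback were above background, also under the strictest choice, and 9 were above the 75th percentile. PTPN6, or SHP1, the phosphatase that ends cytokine signals, had 10.58 and 10.44, PIAS1 11.41 and 11.28, CBL, which marks receptors for breakdown, 10.06 and 10.18, and SOCS3 8.29 and 8.41.

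Known STAT target genes had the highest median percentile of the signalling lists, 95.6. Of 14 ranked members 13 were above background, 11 under the strictest choice, and 10 above the 75th percentile. This short list too was chosen with earlier results of these data known, so its place may partly reflect that choice. CCND3, a G1 cyclin of red cell precursors, had 12.07 and 12.16, the kinase genes PIM1 and PIM2 12.02 and 12.01, and 11.30 and 11.33, and the survival gene BCL2L1, or BCL-XL, 11.44 and 11.52. MYC had 11.42 and 11.41. PIM3 (5.68 and 5.94) and OSM (5.18 and 5.37) were low, and BCL6, a target that STAT5 represses in B cells, was at background (3.40 and 3.61). Most of these genes are also driven by other pathways, and phosphorylated STAT was not measured.

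Other routes were present too. In the RAS-ERK pathway 12 of 13 ranked genes were above background, with KSR1 (10.95 and 10.87), SOS1 (10.30 and 10.17) and NF1, a brake on RAS (9.67 and 9.67). ERK feedback genes were above background in 14 of 16 cases, 10 under the strictest choice, with EGR1 at 11.53 and 12.25. DUSP6, the phosphatase of ERK, had 8.02 and 9.64, and DUSP5 8.12 and 9.82, so both were higher in experiment 2 by more than 1.6, and SPRY4 was at background (3.31 and 3.40). In the PI3K pathway 18 of 19 ranked genes were above background and 14 above the 75th percentile, led by INPP5D, or SHIP1, the lipid phosphatase of blood cells (11.12 and 11.05). Of the SRC, SYK and TEC kinases 16 of 18 were above background, 11 under the strictest choice, led by LYN (11.48 and 11.42). Of 14 ranked protein kinase C and phospholipase C genes 10 were above background, 8 under the strictest choice, a share close to that of all ranked genes. PLCG2, the phospholipase below immune receptors, had 12.12 and 12.21. PRKCB (10.85 and 10.68), PRKCQ (9.82 and 9.65) and PRKCD (9.49 and 9.48) were high among protein kinase C genes, while PRKCA was at background (3.12 and 3.01). Of the 8 SMAD genes 5 were above background, a little under the share of all ranked genes. SMAD2 (9.63 and 9.38), SMAD4 (9.95 and 9.78), SMAD5 (9.11 and 9.23) and SMAD6 (8.66 and 9.34) were above the 75th percentile, and SMAD1, SMAD7 and SMAD9 were at background.

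Telomerase, the target of GRN163L, showed 1 weak and 1 strong part. The catalytic gene TERT had 4.80 and 4.98, above the main background level on both arrays and below the strictest one. TERC, the RNA template to which GRN163L is complementary, had 9.58 and 9.26 (percentile 88.6). All 13 ranked telomerase and shelterin genes were above background, 12 under the strictest choice. NOP10 (10.25 and 10.47) and DKC1 (9.37 and 9.28) belong to the particle that holds TERC, and TERF1 (9.59 and 9.57) and POT1 (8.13 and 7.88) coat telomeres.

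Genes of cell division were high: 24 of 24 ranked proliferation genes were above background and 23 above the 75th percentile. BUB1, of the spindle checkpoint, had 11.74 and 11.45, PLK1, a mitotic kinase, 11.44 and 11.25, TOP2A 10.75 and 10.56 and MCM3, of the replication helicase, 10.46 and 10.63. Of 21 ranked G1 genes 19 were above background, 16 under the strictest choice, which CCND1 did not pass. CDK4 had 10.99 and 11.24, CDK6 10.01 and 9.62, CCND2 10.83 and 11.13, and CCND1 5.52 and 6.13. The G1 inhibitors CDKN2A (3.39 and 3.67) and CDKN2B (3.50 and 3.53) were the only ranked members of that list at background by the main rule. Of the BCL2 family 14 of 16 were above background, 9 under the strictest choice, with BCL2L1 and MCL1 (9.91 and 10.56) among the 4 above the 75th percentile. BCL2 itself, at 5.60 and 5.47, was below the strictest level. Of 27 leukaemia genes and tumour suppressors 24 were above background and 22 above the 75th percentile, NPM1 at 11.30 and 11.34 and RB1 at 10.81 and 10.59. Besides the CDKN2 pair only CEBPA, the granulocyte factor, was at background there (4.32 and 4.55).

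The order of genes around CDKN2A was looked at after its value was seen. Taking the RefSeq order of ranked genes on chromosome 9, 18 neighbours in a row from IFNB1 to ELAVL2 were not called above background. DMRTA1 among them passed the level in experiment 2 alone (4.05 and 4.41). Of the 18, 10 are type I interferon genes, which are rarely used without infection. KLHL9, an adaptor of a ubiquitin ligase, had 3.86 and 3.74 and MIR31HG 2.99 and 2.99. On either side stood FOCAD (8.43 and 8.28) and TUSC1 (6.69 and 6.90). Runs of 18 or more genes at background were found 10 times over all chromosomes, the longest with 28 genes. That count took in all ranked genes, also the olfactory receptors, of which 321 of 335 were at background. It therefore cannot say whether the run around CDKN2A is unusual. DNA was not measured, and its part was not tested. Around JAK2, 12 of 17 ranked genes from CDC37L1 to RANBP6 were above background, close to the 69.6% of all ranked genes on chromosome 9. Among them were RCL1 (11.12 and 10.62) and CD274, or PD-L1 (9.07 and 8.41), both chosen after their values were seen.

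Genes that every cell uses gave a check of the scale. Of 383 ranked members of 9 housekeeping families 372 (97.1%) were above background, and the 11 others are mostly copies used in 1 tissue. RPL10L (3.77 and 4.13), the testis form of a ribosomal protein, and RPL39L (3.88 and 3.94) were the only ribosomal protein genes at background of 65. PSMB11 (3.27 and 3.19), the thymus subunit of the proteasome, and PSMA8 (3.02 and 3.08), its testis subunit, were at background. Among respiratory chain genes these were COX6B2, COX7A1, COX7B2, COX8C, UQCRBP1 and ATP5MGL, with 3.05 to 4.59 on any array, and among translation factors EIF2S3B (3.41 and 3.30). The highest of these respiratory chain values passed the background level, but that gene did not on its other array. The 4 genes of highest mean were PTMA (12.92 and 13.06), ENO1 (12.92 and 12.86) and the ribosomal RNA genes RNA28SN5 and RNA18SN5. GAPDH, ACTB and RPL18 came next. LAPTM5, a lysosomal protein of blood cells (12.64 and 12.56), and HBE1 were the highest genes of blood lineages, and 8 of the 25 highest genes lay in the housekeeping families.

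Among RNA classes, 70.4% of protein-coding genes, 37.1% of 518 long noncoding genes and 23.3% of 180 microRNA genes were above background. A probe set here reads the RNA of the microRNA's gene, so the mature strand was not measured. MIR142, used across blood cells, had 9.82 and 9.62, and MIR223, a myeloid microRNA, 9.55 and 9.07. MIR21 had 7.86 and 7.06, MIR221 7.0 and 6.81 and MIR222, beside it on chromosome X, 5.22 and 4.27. MIR451A (2.73 and 2.56) and MIR144 (3.06 and 2.72), the pair of maturing red cells, and MIR150 (3.89 and 4.17) of lymphocytes were at background. These were chosen after their values were seen. MIR222 lay at the background level in experiment 2. The mature strands of 4 of these genes are given here because their seeds (bases 2 to 8, in capitals) set what they pair with, and miR-221-3p and miR-222-3p share one. All are from RefSeq on GRCh38.p14. RefSeq's table held 171 of the 180 microRNA genes. The strand miR-142-3p is at chr17:58331245-58331267 on the minus strand, miR-223-3p at chrX:66018937-66018958 on the plus strand, and the strands of the pair at chrX:45746180-45746202 and chrX:45747036-45747056, both on the minus strand.
hsa-miR-142-3p: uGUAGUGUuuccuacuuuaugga
hsa-miR-223-3p: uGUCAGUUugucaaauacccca
hsa-miR-221-3p: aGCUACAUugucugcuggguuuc
hsa-miR-222-3p: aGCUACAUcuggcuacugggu

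The 2 control arrays were close for most genes. Across the 17934 ranked genes, which are not independent and share the authors' normalization, Pearson's r was 0.992, and the median absolute difference of genes above background was 0.19. Of the 12279 genes above background 129, or 1.05%, differed by more than 1, of which 41 were higher in experiment 2 and 88 lower. HBEGF, an EGF receptor ligand, had 5.68 and 8.23, EGR3 5.12 and 7.45, and WNT11 7.85 and 9.75, higher in experiment 2. The heat shock genes HSPA1A (10.72 and 8.28), HSPA6 (7.54 and 5.32) and DNAJB4 (8.15 and 6.20) were higher in experiment 1. So were KLHL24, RGS2, CREBRF and ZC3H6, by 1.83 to 1.98. HSPA1A has a near-identical copy beside it, so the gene behind that signal is uncertain. With 1 array in each experiment, differences between cultures and between arrays cannot be told apart.

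**Figure D5:**
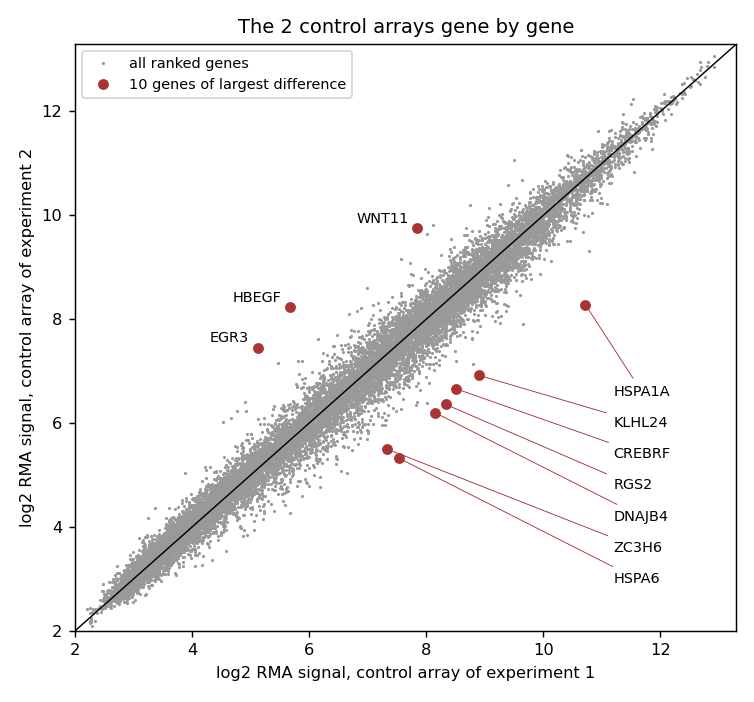
Log2 RMA signal of each ranked gene on the control array of experiment 1 (x axis) and of experiment 2 (y axis), with the line of equal signal and the 10 genes above background of largest difference named. Most genes lie along the line, and HBEGF, EGR3 and WNT11 lie above it, the other named genes below.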

How the data were processed

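The authors deposited a table of log2 signals, made with RMA (background subtraction, quantile normalization and probe summary) in Affymetrix Expression Console, per the submitters' processing notes. The sources used here name neither the program's version nor a genome build. Quantile normalization gives all arrays nearly the same distribution, so absolute amounts cannot be compared. The 33297 probe sets were named with GEO's platform annotation. Of these, 19181 had 1 gene, 2055 several and 12061 were in no row of it. RefSeq's gene table held the gene number of 19143 probe sets with 1 gene. Y-linked genes and XIST were left out.

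Ranks, background calls and counts were computed with Python 3.11.15 (pandas 2.3.3, numpy 2.4.6), and the call was run on simulated data to check the calculation. The simulated expressed genes were set well above the simulated background, so that run says nothing about genes near the background level. The members and gene lists were chosen with earlier results of these data known. The genes named were the 25 highest by mean, the 25 highest outside the housekeeping families, all members of lists of up to 16 genes and up to 8 highest and 4 lowest of longer ones with the drug targets, the 10 largest differences between the arrays, and housekeeping genes at background. Others are marked as chosen after their values were seen. Alternatives were other background levels and gene sets, the mean of both arrays against background, other choices of probe set, and 1 array alone. No p-value is given.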

Additional observations from a re-analysis of the deposited data

How the results depend on the processing

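The counts rest most on where background is set. Genes above background were 12279, against 13220 with the 90th and 8699 with the 99th percentile of the olfactory receptors, and 9126 with the second gene set. With the 99th percentile, 125 lineage list members in place of 190 and 30 housekeeping members at background in place of 11 were counted. The second gene set gave 24 such members, and both choices together, an alternative chosen after seeing the data, gave 124 lineage members and 30 housekeeping members. Counts of genes between about 4.3 and 6.2 should be read with this in mind. With the mean of each gene's probe sets the median percentile was 65.5 in place of 69.0 for progenitor genes, 21.7 in place of 21.5 for B cell genes and 25.1 in place of 28.8 for neuron genes. With either array left out it was 59.7 to 60.5 for endothelial genes, in place of 61.7, and 12.9 to 13.6 for liver genes, in place of 13.1. No paired analysis was possible because 1 group is described and no test was made.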

Other observations

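Among the 12061 unnamed probe sets 5018 were above the same background levels on both arrays. Of the olfactory receptor genes themselves 14 of 335 were above background, a share that the rule itself sets. The highest of them, OR2W3, had 7.17 and 6.85 (chosen after its values were seen). Of the 111 taste receptor, hair keratin-associated and beta-defensin genes, 36 (32.4%) were above the main background level. The share of ranked genes above background ran from 57.0% on chromosome 4 to 80.3% on chromosome 16.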
